A study of Homo sapiens with 6 samples.

Results

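The metalloproteinases and their inhibitors described here are the genes of the deposited table whose symbol is MMP, ADAM or ADAMTS followed by a number, or TIMP1 to TIMP4. They were 67 of 61806 genes, of which 22 were MMPs, 22 ADAMs, 19 ADAMTS and 4 TIMPs. No measured value was used to choose them.

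Matrix metalloproteinases (MMPs) are zinc enzymes that cut collagen, gelatin and other matrix proteins, and most are made as inactive precursors. ADAMs are membrane proteins with a disintegrin and a metalloproteinase domain. The active members release growth factors, receptors and adhesion proteins from the cell surface, and others have lost the active site and act in adhesion. ADAMTS enzymes are secreted relatives that cut proteoglycans, procollagens and clotting proteins. The tissue inhibitors of metalloproteinases (TIMPs) block the active site of these enzymes. In glioblastoma the families are known for the breakdown of matrix at the invading edge.

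U87-MG is an established human glioblastoma cell line. The groups were 3 libraries of the negative control (NC), whose genotype is given as wildtype, and 3 libraries whose titles name GRIK1 siRNA and whose genotype is given as GRIK1 knockdown. Both groups are the same line, and the study's methods grew the cells in modified Eagle's medium with serum and transfected siRNA with a lipid reagent, while the series text names an shRNA. The labels number the libraries of each group 1 to 3 and do not say whether the numbers of the second group are cultures or siRNA sequences, so the p-values measure the spread between these libraries, which may be technical.

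The targeted gene, GRIK1, a kainate receptor subunit, had 18, 9 and 8 counts in NC libraries 1 to 3, against 15, 20 and 20 counts in libraries 1 to 3 labelled GRIK1 siRNA. The labelled knockdown exceeded NC by 0.12 in log2(FPKM + 1) (exact permutation test, both sides, p = 0.4, where 3 against 3 cannot give less than 0.1). It was not lower in the counts of these libraries, so the group is named by its label throughout, and a direction below is that of the labelled groups. The study reports an efficient knockdown of GRIK1 in U87-MG cells from separate measurements. It chose the first of its 3 siRNA sequences, the most efficient, for later experiments, and does not name the sequence for these libraries.

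The libraries held 11099909 to 14006968 counts. NC library 3 stood apart. Ribosomal protein genes took 9.37% of its counts and between 4.79% and 5.50% in the other 5 libraries. The FPKM of the 67 members summed to 862 in NC library 3 and to between 1505 and 1619 in the others. After TMM scaling, 29 of the 33 tested members lay outside the range of the other 5 libraries in NC library 3, 22 below it and 7 above. Of all tested genes 71.4% lay outside, 35.8% below and 35.5% above. Against NC libraries 1 and 2 alone, 31 of 33 members and 88.5% of all tested genes lay outside. Most results are therefore given with and without this library, while the counts of members whose groups did not overlap use all 6 libraries only. The part of NC library 3 in the differences was measured in that way and its cause was not tested.

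The cell line matched its label in part. VIM, an intermediate filament of mesenchymal and glial cells, was between 825 and 1076 FPKM. CD44, a hyaluronan receptor of mesenchymal glioma cells, was between 50.8 and 71.6 FPKM. Of the other glial markers listed, GFAP, S100B and SOX2 stayed at or under 0.28 FPKM in each library, and NES and OLIG2 reached 0.69 and 0.83 FPKM. GFAP, the astrocyte filament, had 13, 11 and 8 counts in the NC group, against 39, 36 and 38 in the others. CDKN2A, deleted in this line, had at most 2 counts. Of 5 immune markers 4 stayed under 0.5 FPKM in each library, among them PTPRC, the common leukocyte antigen, and so did 2 of 3 endothelial and 2 of 3 epithelial markers. The summed immune markers were 2.33 to 3.59 FPKM in the NC group, against 3.91 to 4.25 FPKM in the others, most of it CD68, a lysosomal protein that other cells also make. The part of these genes in the differences below was not tested.

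A small number of members carried most of the RNA. MMP2, TIMP1 and MMP14 together held 86.3%, 86.3% and 76.1% of the members' summed FPKM in NC libraries 1 to 3, against 86.2%, 85.5% and 85.8% in libraries 1 to 3 labelled GRIK1 siRNA. These 3 averaged at least 100 FPKM. A further 8 had between 10 and 100 FPKM, 17 had between 1 and 10, and 5 had between 0.5 and 1. Of the remaining 34, 14 had more than 3 counts in a library, 7 had at most 3 counts in any library and 13 had 0 counts in each. FPKM is per length, so these levels can be compared between genes only as far as the deposited lengths hold. For some members these differ from the GENCODE lengths used for shared exons. ADAM9 has 17704 against 6913 bases, ADAM17 15964 against 10750, and TIMP4 1194 against 1650. For others, such as ADAM12 with 9882 against 9860 bases, they are close. Levels and ratios between genes depend on the lengths used, and changes of a gene between libraries do not. In bulk RNA, fewer cells that make a transcript and less of it per cell cannot be told apart.

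**Figure D1:**
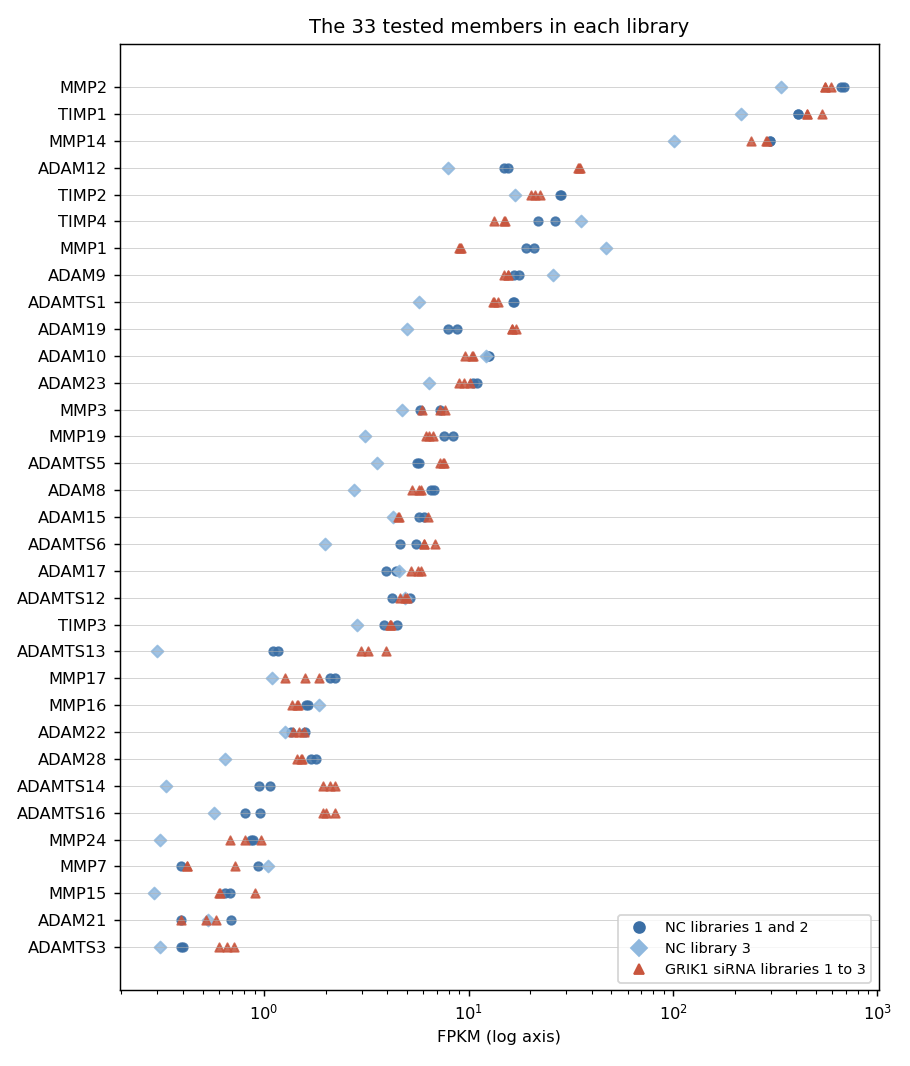
FPKM of the 33 tested members in each library, on a log axis, ordered by mean FPKM. Circles are NC libraries 1 and 2, diamonds NC library 3 and triangles the libraries labelled GRIK1 siRNA. MMP2, TIMP1 and MMP14 stand at the top, and the diamond is often the outermost point.

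Only the 33 members with a mean of at least 0.5 FPKM were tested, 10 MMPs, 11 ADAMs, 8 ADAMTS and 4 TIMPs. Of these, 4 rose in the libraries labelled GRIK1 siRNA and 0 fell. The risers were ADAM12, ADAM19, ADAMTS13 and ADAMTS16, and each also had an absolute log2 fold change over 1, where 1.41% of all tested genes had both such a fold change and an adjusted p under 0.05. Over all tested genes edgeR called 3.09%, 1.61% as higher and 1.48% as lower. With 6 libraries the median log2 fold change was 0.01 over the members and -0.02 over all tested genes, and 17 of the 33 members were positive. Without NC library 3 the medians were -0.14 and 0.01 in that order. Then 13 of the 33 members and 50.7% of all tested genes were positive.

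These calls depended on the libraries used. Without NC library 3, 21 of 33 members were called, 10 higher and 11 lower, where 35.2% of all tested genes were called, 16.9% as higher and 18.3% as lower. The 21 included all 4 risers. The 10 higher also included ADAMTS3, which reached the filter only through the group where it was higher. When any 1 of the other 5 libraries was dropped, edgeR called 0 members and 0 genes in all, while between 9 and 13 members and between 14.1% and 27.9% of all tested genes had an unadjusted p under 0.05. DESeq2 called 8 members, the 4 risers together with ADAMTS14 as higher and MMP1, TIMP4 and ADAM10 as lower, where it called 5.2% of all tested genes as higher and 4.84% as lower.

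After TMM scaling the groups did not overlap for 14 of the 33 members, 9 higher and 5 lower, where 38.5% of all tested genes did not overlap, 19.4% higher and 19.0% lower. By family, the 9 were 6 ADAMTS, 2 ADAMs and 1 TIMP, and the 5 were 2 MMPs, 2 ADAMs and 1 TIMP. The 6 ADAMTS include ADAMTS3, which reached the filter only through the group where it was higher and is no support here.

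**Figure D2:**
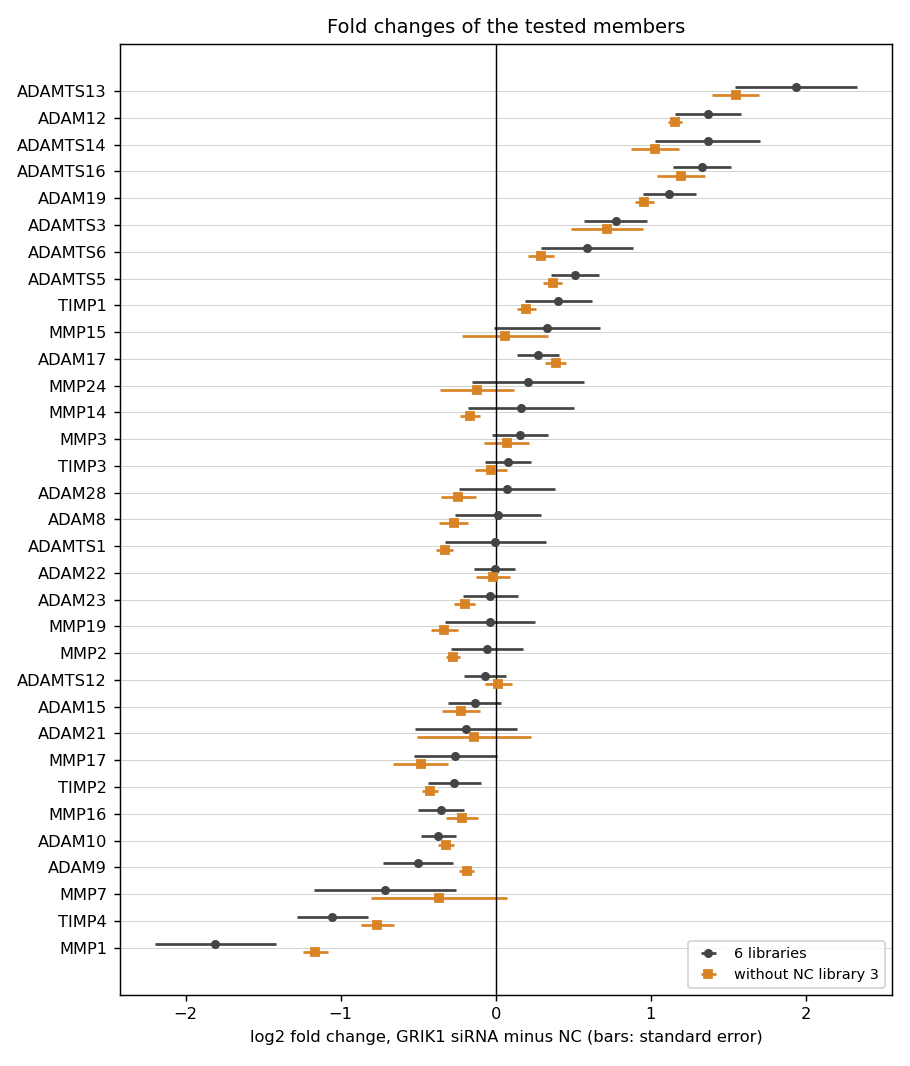
Log2 fold change (GRIK1 siRNA minus NC) of the 33 tested members from edgeR, with all 6 libraries (circles) and without NC library 3 (squares). Bars are the standard error (SE). ADAMTS13 has the highest value and MMP1 the lowest in both fits, and the bars are shorter without NC library 3 except for ADAM21 and ADAMTS3.

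ADAM12 and ADAM19, also called meltrin alpha and meltrin beta, are close relatives with an active protease domain that act in cell fusion, adhesion and the release of growth factors. ADAM12 (ENSG00000148848, chromosome 10 from 126012381 to 126388477, minus strand) was at 15.6, 14.9 and 7.95 FPKM in NC libraries 1 to 3 and at 34.4, 35.0 and 34.6 FPKM in libraries 1 to 3 labelled GRIK1 siRNA. The latter were close together and all above the NC libraries. ADAM12 rose from 12.8 ± 4.24 to 34.7 ± 0.308 FPKM (SD, n = 3 each), a fitted log2 fold change of 1.37 (SE 0.21, edgeR adjusted p = 0.0306), or 2.58-fold. Without NC library 3 the log2 fold change was 1.16 (SE 0.05).

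ADAM19 (ENSG00000135074, chromosome 5 from 157395534 to 157575775, minus strand) was at 8.77, 7.92 and 5.02 FPKM in the NC group, against 16.3, 16.3 and 17.0 FPKM in those labelled GRIK1 siRNA. Again the groups did not overlap. It rose from 7.24 ± 1.97 to 16.5 ± 0.394 FPKM (SD, n = 3 each), with a fitted log2 fold change of 1.12 (SE 0.17, edgeR adjusted p = 0.0304) and of 0.96 (SE 0.06) without NC library 3. CYFIP2 on the opposite strand shares 62 exonic bases, 0.8% of the exonic bases of ADAM19.

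ADAMTS13, the protease that trims von Willebrand factor, had the largest rise. Its FPKM were 1.17, 1.10 and 0.30 in the NC libraries, from 74, 70 and 24 counts, and 3.96, 3.22 and 2.97 with the label GRIK1 siRNA, from 280, 232 and 224 counts. The NC libraries 1 and 2 were close together, and NC library 3 was the lowest of the 6. ADAMTS13 (ENSG00000160323, chromosome 9 from 133414358 to 133459402, plus strand) had a log2 fold change of 1.94 (SE 0.39, edgeR adjusted p = 0.048), or 3.83-fold, and of 1.55 (SE 0.15) without NC library 3. REXO4 overlaps its span on the opposite strand and shares 0 exonic bases with it.

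ADAMTS16, a less studied family member, had 53, 62 and 47 counts in the NC group, against 161, 149 and 151 counts in the others. In FPKM these were 0.81, 0.95 and 0.57 against 2.22, 2.01 and 1.95, so the groups did not overlap. ADAMTS16 (ENSG00000145536, chromosome 5 from 5140330 to 5320304, plus strand) had a log2 fold change of 1.33 (SE 0.19, edgeR adjusted p = 0.0291), or 2.51-fold, and of 1.19 (SE 0.16) without NC library 3.

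The promoters of 3 of the 4 risers, ADAM12, ADAM19 and ADAMTS13, are shown because these genes moved together, and that of ADAMTS16 is not shown. RefSeq windows of 250 bases before and 50 after the start on GRCh38.p14 were matched by symbol for 38 of the 67 members. The windows shown lie, in that order, at chr10:126388428-126388727 on the minus strand, chr5:157575726-157576025 on the minus strand and chr9:133422117-133422416 on the plus strand. The ADAMTS13 window lies inside the span that the deposited table gives that gene. Capitals mark GC boxes (GGGCGG on either strand), the letters bound by SP1-type factors.
ADAM12: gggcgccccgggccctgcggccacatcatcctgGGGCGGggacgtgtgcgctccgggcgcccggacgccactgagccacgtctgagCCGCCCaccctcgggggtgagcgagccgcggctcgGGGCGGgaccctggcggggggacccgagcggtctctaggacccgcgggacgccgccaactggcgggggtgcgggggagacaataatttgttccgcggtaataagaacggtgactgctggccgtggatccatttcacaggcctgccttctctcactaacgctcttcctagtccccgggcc
ADAM19: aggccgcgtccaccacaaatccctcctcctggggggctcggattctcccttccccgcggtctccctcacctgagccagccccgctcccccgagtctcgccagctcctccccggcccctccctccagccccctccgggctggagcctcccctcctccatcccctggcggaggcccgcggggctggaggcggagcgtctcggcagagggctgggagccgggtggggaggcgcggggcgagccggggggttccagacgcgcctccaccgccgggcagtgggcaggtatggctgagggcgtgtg
ADAMTS13: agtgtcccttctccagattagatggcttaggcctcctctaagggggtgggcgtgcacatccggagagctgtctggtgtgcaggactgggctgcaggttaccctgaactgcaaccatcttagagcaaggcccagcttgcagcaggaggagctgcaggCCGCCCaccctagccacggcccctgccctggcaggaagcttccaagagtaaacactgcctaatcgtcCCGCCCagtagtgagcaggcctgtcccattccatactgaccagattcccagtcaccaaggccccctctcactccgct

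None of the 3 motifs searched was in all 3 windows. ADAM12 held 3 GC boxes, which begin 217, 164 and 129 bases before the start, ADAMTS13 held 2, which begin 94 and 27 bases before it, and ADAM19 held 0. Of all 35116 windows of this length, 45.0% held a GC box, and so did 17 of the 21 tested members with a window. Neither the AP-1 element TGANTCA, found in 7.71% of all windows, nor the TATA box TATAAA, found in 11.5%, was in any of the 3 on either strand. Each was found for 2 of the 21 tested members with a window. The GC content was 71.0% in ADAM12, 75.7% in ADAM19 and 60.3% in ADAMTS13, against a median of 58.7%. CpG pairs numbered 33, 26 and 7 in that order, against a median of 14.

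**Figure D3:**
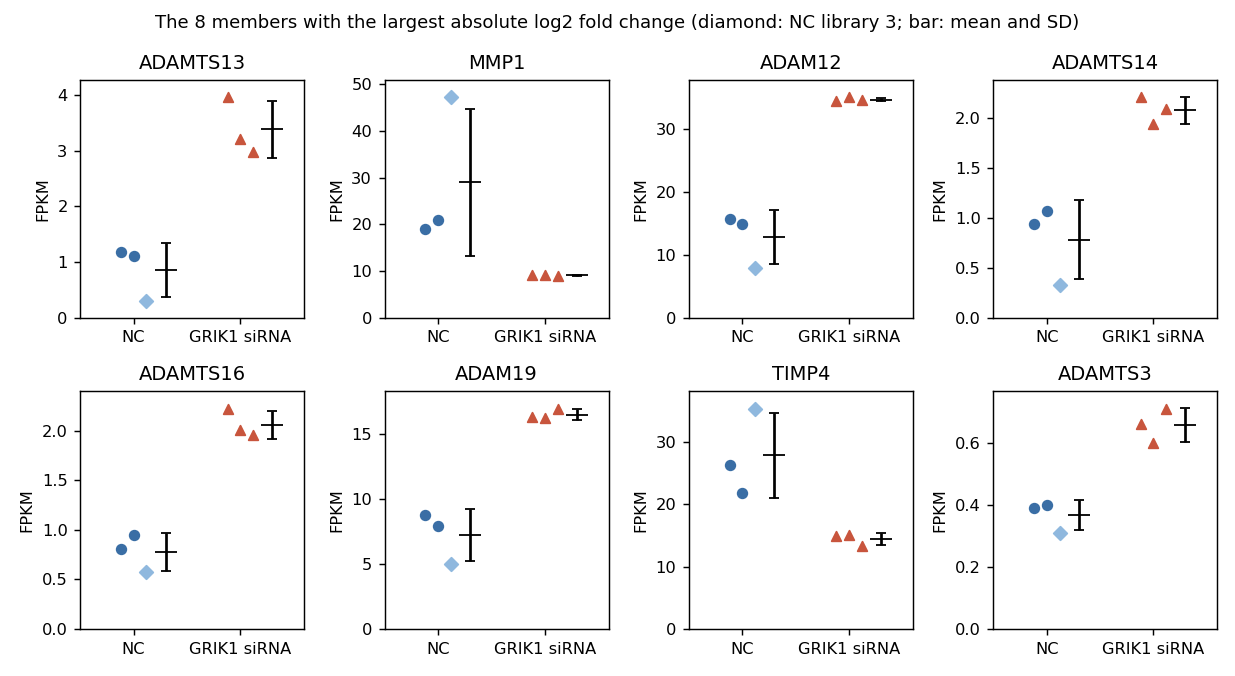
FPKM in each library for the 8 members with the largest absolute log2 fold change, each axis starting at 0. Circles are NC libraries 1 and 2, the diamond is NC library 3, triangles are the libraries labelled GRIK1 siRNA, and the bar gives mean and SD. In each panel the groups do not overlap, and NC library 3 is the NC library farthest from the triangles. ADAMTS3 reached the filter only through the libraries labelled GRIK1 siRNA.

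The ADAMTS family as a whole had 6 of 8 tested members with a positive log2 fold change, a median of 0.68 and 2 calls, where 48.6% of all tested genes were positive, their median was -0.02 and 3.09% were called. Of these 8, ADAMTS3 reached the filter only through the group where it was higher, so it adds no support to the totals of this family. NC library 3 lay below the other 5 libraries for 7 of the 8. Without it 7 were positive, the median was 0.54 and 7 were called, 6 higher and 1 lower. Of all tested genes 50.7% were then positive, their median was 0.01 and 35.2% were called. Among the other families, 4 of 10 MMPs, 5 of 11 ADAMs and 2 of 4 TIMPs were positive with 6 libraries. Their medians were -0.05, -0.01 and -0.09 in that order. Without NC library 3 these counts were 2, 3 and 1, with medians of -0.25, -0.19 and -0.23. The calls were then 0 MMPs higher and 4 lower, 3 ADAMs higher and 4 lower, and 1 TIMP higher and 2 lower. The remaining ADAMTS members included the procollagen N-proteinases, which trim the amino end of fibrillar collagens. ADAMTS14, of that group, was at 0.94, 1.07 and 0.33 FPKM in the NC group, against 2.21, 1.94 and 2.09 FPKM in the others. The fitted log2 fold change was 1.37 (SE 0.34) and did not pass with 6 libraries (edgeR adjusted p = 0.0743), while it was 1.02 (SE 0.16, adjusted p = 6.28e-05) without NC library 3.

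ADAMTS3, the other tested N-proteinase, was at 0.39, 0.40 and 0.31 FPKM in the NC group, against 0.66, 0.60 and 0.71 FPKM in the others, on 30 to 66 counts. Its log2 fold change was 0.77 (SE 0.20, edgeR adjusted p = 0.0816) and passed without NC library 3 (0.72, adjusted p = 0.0230). ADAMTS3 reached the filter, at a mean of 0.512 FPKM, only through the group where it was higher. The group means were 0.367 FPKM in NC and 0.657 FPKM in the others. Its place among the ADAMTS that rose or did not overlap is therefore no support for a rise. In the edgeR fit without a filter its adjusted p was 0.134. ADAMTS2, the N-proteinase of skin collagen, had 1 count in the 6 libraries together.

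The aggrecanases cut the large proteoglycans aggrecan, versican and brevican. ADAMTS5 was at 5.70, 5.62 and 3.58 FPKM in the NC group, against 7.54, 7.52 and 7.22 FPKM in the others, without overlap. The fitted log2 fold change of 0.51 (SE 0.15, edgeR adjusted p = 0.109) passed without NC library 3, at 0.37 (adjusted p = 0.000219). ADAMTS1 was at 16.7, 16.6 and 5.71 FPKM against 13.4, 13.9 and 13.1 FPKM. NC library 3 lay far below all 5 others, and the log2 fold change went from -0.0026 with it to -0.33 (SE 0.05, edgeR adjusted p = 0.000119) without it.

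ADAMTS4 and ADAMTS9 were under the filter, with a mean of 0.225 and 0.133 FPKM, and ADAMTS8, ADAMTS15 and ADAMTS20 had at most 2 counts in a library. ADAMTS6, related to ADAMTS10, was at 5.50, 4.64 and 1.98 FPKM against 6.08, 6.84 and 6.02 FPKM. Its log2 fold change was 0.59 (SE 0.30, adjusted p = 0.255) with 6 libraries and 0.29 (SE 0.09, adjusted p = 0.0132) without NC library 3. ADAMTS12, which cuts cartilage oligomeric matrix protein, was at 5.19, 4.21 and 4.90 FPKM against 4.90, 4.98 and 4.64 FPKM, and the groups overlapped.

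Among the collagenases, which open the triple helix of fibrillar collagen, MMP1 (ENSG00000196611, chromosome 11 from 102789401 to 102798160, minus strand) had the lowest log2 fold change of the 33 tested members. It was at 19.0, 20.9 and 47.2 FPKM in NC libraries 1 to 3, from 577, 636 and 1811 counts, and at 9.05, 9.20 and 8.93 FPKM in the libraries labelled GRIK1 siRNA, from 307, 318 and 323 counts. The latter all lay under the NC libraries, and NC library 3 was the highest of the 6. The log2 fold change was -1.81 (SE 0.39) and missed the threshold with 6 libraries (edgeR adjusted p = 0.0536). It was -1.16 (SE 0.08, adjusted p = 1.24e-08) without NC library 3, and DESeq2 called it with 6 libraries (adjusted p = 0.000205). WTAPP1 on the opposite strand, which shares 150 exonic bases with MMP1, had at most 6 counts. MMP8, the neutrophil collagenase, had at most 3 counts in a library, and MMP13 had 0.

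MMP1 belongs to 9 MMP genes that lie in a row over 435.2 kb of chromosome 11. Its neighbour MMP3, a stromelysin that cuts proteoglycans and activates other MMPs, lies 315.3 kb from MMP7, where MMP1 lies at 268.9 kb, and was at 5.78, 7.23 and 4.70 FPKM against 5.92, 7.22 and 7.68 FPKM. The groups overlapped for MMP3, with a log2 fold change of 0.16 (SE 0.18, edgeR adjusted p = 0.608) and of 0.07 without NC library 3. MMP7, the matrilysin at the lower end of the row, had 24, 10 and 34 counts against 12, 21 and 13. Its log2 fold change was -0.71 (SE 0.46, edgeR adjusted p = 0.359) and -0.37 (SE 0.44, adjusted p = 0.564) without NC library 3. The other 6 genes of the row had a mean under 0.15 FPKM or 0 counts.

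**Figure D4:**
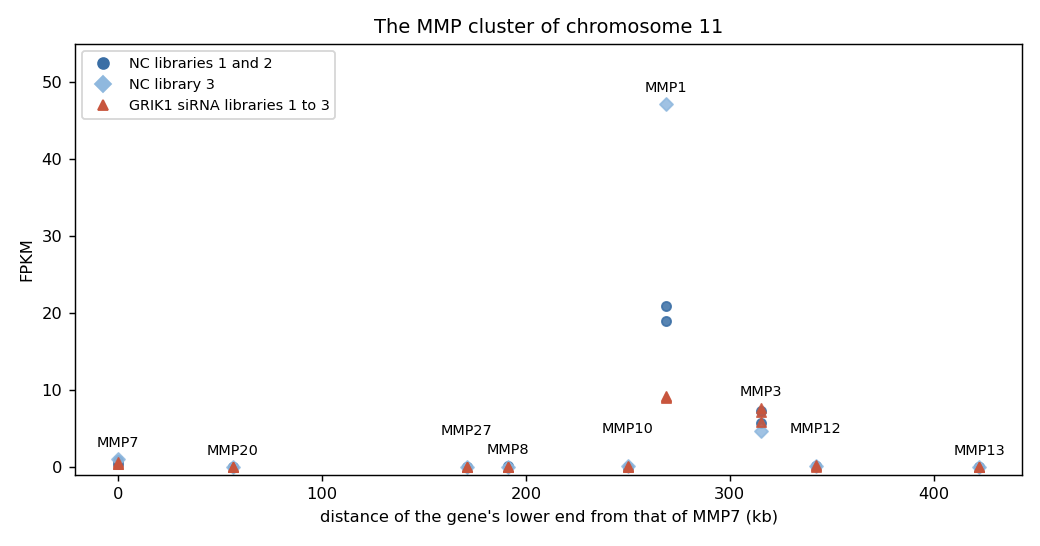
FPKM of the 9 MMP genes of the chromosome 11 row in each library, against the distance of each gene's lower end from that of MMP7 in kb. Circles are NC libraries 1 and 2, diamonds NC library 3 and triangles the libraries labelled GRIK1 siRNA. MMP1 and MMP3 stand out from the row, and for MMP1 alone the triangles lie under the NC libraries.

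MMP2, the gelatinase that cuts denatured collagen and basement membrane collagen, had the highest level of all members. It was at 687, 662 and 339 FPKM in NC libraries 1 to 3 and at 591, 553 and 555 FPKM in libraries 1 to 3 labelled GRIK1 siRNA. The latter lay between NC library 3 and the other NC libraries. With 6 libraries the log2 fold change was -0.06 (SE 0.23, edgeR adjusted p = 0.898), and without NC library 3 it was -0.28 (SE 0.05, adjusted p = 0.000127). MMP9, the other gelatinase, had 5, 6 and 4 counts in the NC group, against 13, 9 and 9 in the others, at a mean of 0.265 FPKM, and was under the filter. In the fit without a filter its log2 fold change was 0.83 (SE 0.56, adjusted p = 0.497).

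MMP14 is anchored in the membrane and activates the MMP2 precursor at the cell surface. It was at 299, 299 and 102 FPKM in the NC group, against 241, 289 and 284 FPKM in the others. NC library 3 was again the lowest, and the groups overlapped. The log2 fold change was 0.16 (SE 0.34, edgeR adjusted p = 0.785) with it and -0.16 (SE 0.06, adjusted p = 0.0508) without it, so the direction depended on that library.

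The other membrane-type MMPs were low. MMP16 and MMP17 had means of 1.56 and 1.69 FPKM, and MMP15 and MMP24 of 0.62 and 0.75 FPKM. Of these, MMP17 passed without NC library 3, where NC libraries 1 and 2 had 99 and 93 counts, against 92, 64 and 84 for the other group (log2 fold change -0.48, SE 0.18, edgeR adjusted p = 0.0414). With 6 libraries it was -0.26 (adjusted p = 0.564). MMP19, a secreted MMP outside these groups, was at 7.54, 8.37 and 3.13 FPKM against 6.41, 6.68 and 6.21 FPKM. The fitted log2 fold change was -0.04 with NC library 3 and -0.33 (adjusted p = 0.00707) without it. TMEM198B on the opposite strand covers 17.4% of the exonic bases of MMP19, and its reads cannot be told from those of MMP19 there where strand was not used. TMEM198B had 794, 705 and 384 counts in the NC group, against 496, 521 and 553 in the others. In these counts NC library 3 was the lowest, and the second group lay between it and NC libraries 1 and 2. MMP19 had that order in FPKM. In counts it had 391, 435 and 205 against 371, 394 and 383, where NC library 3 was again the lowest and the groups otherwise overlapped.

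ADAM10 and ADAM17 are the main sheddases of the cell surface. ADAM10 cuts Notch receptors and cadherins, and ADAM17 releases tumour necrosis factor and ligands of the EGF receptor. ADAM10 was at 12.5, 12.6 and 12.2 FPKM in the NC group, against 9.64, 10.5 and 10.4 FPKM in the others. Here NC library 3 lay with its group in FPKM, while after TMM scaling it lay above the other 5 libraries. The log2 fold change was -0.37 (SE 0.11, edgeR adjusted p = 0.111) and, without NC library 3, -0.32 (SE 0.05, adjusted p = 9.85e-05).

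ADAM17 was at 4.42, 3.96 and 4.58 FPKM in the NC group, against 5.63, 5.86 and 5.24 FPKM in the others. The groups did not overlap in FPKM and did after TMM scaling. Its log2 fold change was 0.27 (SE 0.13, edgeR adjusted p = 0.245) and, without NC library 3, 0.39 (SE 0.07, adjusted p = 0.000240). IAH1 on the opposite strand covers 12.3% of the exonic bases of ADAM17 and had 394, 410 and 753 counts against 349, 427 and 389.

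ADAM9, a sheddase related to ADAM12 and ADAM19, had 3272, 3463 and 6447 counts in the NC group and 3258, 3473 and 3628 in the others, or 20.1 ± 5.15 against 15.3 ± 0.384 FPKM (SD, n = 3 each). In FPKM the groups did not overlap, and NC library 3 was the highest. The log2 fold change was -0.50 (SE 0.23, edgeR adjusted p = 0.215) and -0.19 (SE 0.05, adjusted p = 0.00501) without that library. ADAM8, known from leukocytes and invasive tumours, was at 6.81, 6.55 and 2.74 FPKM against 5.87, 5.74 and 5.29 FPKM, and its log2 fold change went from 0.01 to -0.27 (adjusted p = 0.0270) without NC library 3. ADAM15 was at 6.08, 5.72 and 4.28 FPKM against 6.35, 4.50 and 4.59 FPKM and did not pass in either fit.

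ADAM22 and ADAM23 lack a working protease site and bind LGI proteins at synapses. ADAM23 was at 11.01, 10.6 and 6.39 FPKM in the NC group, against 9.51, 8.99 and 10.2 FPKM in the others, with a log2 fold change of -0.03 with 6 libraries and of -0.20 (edgeR adjusted p = 0.0296) without NC library 3. ADAM22 was at 1.36, 1.58 and 1.26 FPKM against 1.48, 1.57 and 1.38 FPKM, and the groups overlapped. Of the ADAMs of sperm and testis, ADAM2, ADAM18, ADAM29 and ADAM30 had at most 2 counts in a library, as did the pseudogenes ADAM5 and ADAM6. Others known from testis were not silent. ADAM20, ADAM21 and ADAM32 had up to 14, 25 and 51 counts in a library, in that order.

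All 4 TIMPs were tested and 0 passed with 6 libraries, while 1 had an unadjusted p under 0.05 in edgeR and DESeq2 called TIMP4. TIMP1, which inhibits most soluble MMPs, was at 411, 410 and 216 FPKM in the NC group, against 533, 452 and 453 FPKM in the others. The groups did not overlap. The fitted log2 fold change was 0.40 (SE 0.22, edgeR adjusted p = 0.285) and 0.20 (SE 0.06, adjusted p = 0.0202) without NC library 3.

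TIMP2, which inhibits MMP2 and also helps MMP14 to activate it, was at 28.2, 27.95 and 16.9 FPKM against 22.3, 21.2 and 20.3 FPKM. As for MMP2, the libraries labelled GRIK1 siRNA lay between NC library 3 and the other NC libraries. The log2 fold change was -0.27 (SE 0.17, edgeR adjusted p = 0.349), and -0.43 (SE 0.05, adjusted p = 7.09e-06) without NC library 3. TIMP3, which binds the matrix and inhibits ADAM10 and ADAM17 as well as MMPs, was at 4.45, 3.87 and 2.86 FPKM against 4.16, 4.12 and 4.15 FPKM and did not pass in either fit (adjusted p = 0.763 and 0.859).

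TIMP4 (ENSG00000157150, chromosome 3 from 12153068 to 12158912, minus strand), the TIMP of narrowest tissue range, was at 26.3, 21.9 and 35.4 FPKM in the NC group, against 14.95, 15.1 and 13.3 FPKM in the others. The latter all lay below the NC libraries. The log2 fold change was -1.05 (SE 0.23) and missed the threshold with 6 libraries (edgeR adjusted p = 0.0536). Without NC library 3 it was -0.76 (SE 0.11, adjusted p = 3.26e-05). SYN2, within which TIMP4 lies on the opposite strand, covers 10.3% of its exonic bases and had 64, 74 and 108 counts against 84, 89 and 83.

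Ratios of FPKM within a library were taken for 7 pairs chosen with the values known, and no test was made. TIMP1 to MMP2 was 0.598, 0.620 and 0.637 in NC libraries 1 to 3, against 0.901, 0.817 and 0.816 in libraries 1 to 3 labelled GRIK1 siRNA. ADAM10 to ADAM17 was 2.82, 3.18 and 2.66 against 1.71, 1.80 and 1.99. In both of these pairs NC library 3 lay close to its group, unlike the single genes MMP2 and TIMP1.

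ADAM12 to ADAM9 was 0.939, 0.848 and 0.306 against 2.32, 2.25 and 2.23. The deposited length of ADAM9 is 17704 bases, against 6913 in the GENCODE model used for shared exons. For ADAM12 the lengths are 9882 and 9860 bases. ADAM12 was the less abundant of that pair in the NC libraries with either length. Which was the more abundant in the others depends on the length used and was not decided. The difference between the groups does not depend on it. MMP1 to MMP3 was 3.29, 2.89 and 10.05 against 1.53, 1.27 and 1.16. TIMP2 to MMP2 was 0.0411, 0.0422 and 0.0499 against 0.0378, 0.0384 and 0.0366. In these 5 pairs the groups did not overlap. The share over all pairs of genes was not computed, and of all tested genes taken singly 38.5% did not overlap after TMM scaling. TIMP1, ADAM10, ADAM12, ADAM9 and MMP1 were already apart as single genes. With pairs chosen by their values, the count is no result about the pairs.

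In the pairs with MMP14 the groups overlapped. TIMP1 to MMP14 was 1.37, 1.37 and 2.13 against 2.21, 1.56 and 1.597, and MMP2 to MMP14 was 2.29, 2.22 and 3.34 against 2.45, 1.91 and 1.96. Over the families, the summed FPKM of the TIMPs relative to the MMPs was 0.458, 0.462 and 0.541 in the NC group, against 0.667, 0.565 and 0.566 in the others.

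**Figure D5:**
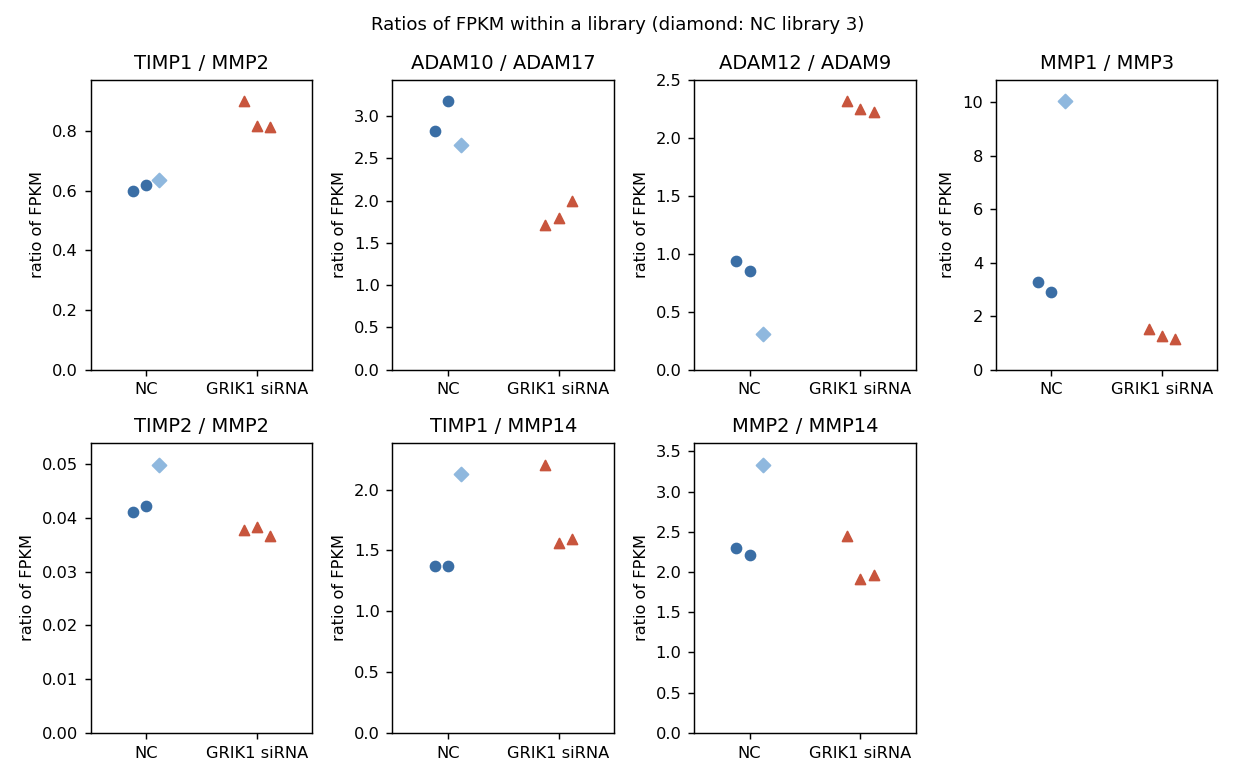
Ratio of FPKM within each library for the 7 pairs of members, which were chosen with the values known, each axis starting at 0. Circles are NC libraries 1 and 2, the diamond is NC library 3 and triangles are the libraries labelled GRIK1 siRNA. The groups overlap in the panels of TIMP1 to MMP14 and MMP2 to MMP14 and in no other, and the diamond lies with the circles for TIMP1 to MMP2 and ADAM10 to ADAM17.

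The members act with activators, carriers and further inhibitors, of which 32 were in the table and 22 were tested. Of these 22, edgeR called 0 with 6 libraries, while 3 had an unadjusted p under 0.05, against 25.1% of all tested genes, and DESeq2 called 1. Without NC library 3, edgeR called 11, 6 higher and 5 lower, against 35.2% of all tested genes. The largest log2 fold change was that of PAPLN, papilin, a matrix protein with ADAMTS-like repeats, at 1.31, 1.16 and 0.30 FPKM in the NC group, against 2.13, 2.35 and 2.37 FPKM in the others. It was 1.27 (SE 0.41, edgeR adjusted p = 0.125) and 0.86 (SE 0.13, adjusted p = 4.07e-05) without NC library 3.

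LRP1, the receptor that clears MMPs, ADAMTS and TIMPs from outside the cell, was at 59.9, 52.1 and 12.2 FPKM against 87.2, 78.4 and 77.8 FPKM. Its log2 fold change was 0.93 (SE 0.47, edgeR adjusted p = 0.256) and 0.51 (SE 0.06, adjusted p = 4.89e-06) without NC library 3. PCSK5, a proprotein convertase, had 0.69 (adjusted p = 0.148) and 0.44 (adjusted p = 0.000987) in that order. BMP1, the procollagen C-proteinase, had 0.64 (adjusted p = 0.238) and 0.33 (adjusted p = 0.00160), and PLAT, tissue plasminogen activator, had 0.57 (adjusted p = 0.136) and 0.41 (adjusted p = 0.0249). PLAU, the urokinase that starts plasmin formation, was at 87.04, 81.6 and 41.1 FPKM against 54.5, 51.6 and 52.7 FPKM, with -0.47 (adjusted p = 0.243) and -0.70 (adjusted p = 8.37e-09).

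The remaining partner genes called without NC library 3 had smaller values. PLAUR, the urokinase receptor, had 0.35 (edgeR adjusted p = 0.274) with 6 libraries and 0.17 (adjusted p = 0.0343) without NC library 3. SERPINE2, a serpin that inhibits urokinase and thrombin, had -0.16 (adjusted p = 0.551) and -0.31 (adjusted p = 5.84e-05) in that order. FURIN, the convertase that activates many ADAMs and membrane-type MMPs, had -0.09 (adjusted p = 0.735) and -0.22 (adjusted p = 0.0168), and THSD4, an ADAMTS-like protein, had -0.22 (adjusted p = 0.549) and -0.44 (adjusted p = 0.00136).

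The partners of ADAM10 and ADAM17, tetraspanins and iRhoms that carry them to the surface, included 8 tested genes, 4 with a positive and 4 with a negative log2 fold change and 0 calls with 6 libraries. Of these, TSPAN14 passed without NC library 3, with -0.24 (SE 0.05, edgeR adjusted p = 0.00195).

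The remaining tested members, ADAM21, ADAM28, MMP15, MMP16 and MMP24, did not pass in either fit, and their log2 fold changes with 6 libraries were -0.19, 0.07, 0.33, -0.35 and 0.21 in that order (edgeR adjusted p from 0.194 for MMP16 to 0.900 for ADAM28). Without NC library 3 they were -0.14, -0.24, 0.06, -0.22 and -0.12, so the signs of ADAM28 and MMP24 depended on that library. MMP24OS on the opposite strand covers 18.1% of the exonic bases of MMP24.

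Among the 34 members under the filter, those with the highest means were ADAMTS18 at 0.383 FPKM, ADAM32 at 0.315 FPKM and ADAMTS7 at 0.275 FPKM. In the fit without a filter, which covered 54 members and called 4.12% of all its genes, 2.13% as higher and 1.98% as lower, 7 members were called. They were the 4 risers and ADAMTS14 as higher, and MMP1 and TIMP4 as lower, so 0 of the members under the filter passed. The members with 0 counts in each library were MMP13, MMP20, MMP26, MMP27, MMP28, ADAM2, ADAM6, ADAM18, ADAM30, ADAM33, ADAMTS15, ADAMTS19 and ADAMTS20. A count of 0 in a library allows up to 3 counts there, so a low level of the 13 members without a count was not detectable at this depth.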

How the data were processed

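Total RNA of U87-MG cells was sequenced in 6 libraries, 3 per group, grouped by title alone. Per the submitters' processing notes, cutadapt 1.9.1, HISAT2 and HTSeq were used with GRCh38, and the strand setting is not given in the sources used here. The authors deposited whole-number counts per gene without normalization. The deposited FPKM values were made by the authors from those counts, the exonic size of a gene and the library total, and 100% of them matched that formula within 0.0051. No value column was left unassigned (0). The design named edgeR for the case that the table held counts, which it did.

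Genes with a mean FPKM of at least 0.5 over the 6 libraries (15870 of 61806) were tested by quasi-likelihood in edgeR 4.0.16 (R 4.3.3), using TMM scaling, no block and Benjamini-Hochberg adjustment over all tested genes. A call is an adjusted p under 0.05. Standard errors (SE) were derived from the fold change and the F statistic. GRIK1 was tested with an exact permutation test in scipy 1.17.1. Alternatives were DESeq2 1.42.0, limma-trend (limma 3.58.1) on log2(FPKM + 1), median-of-ratios scaling, other filters, the number in the title as a block and leaving out each library. The scripts were tested on simulated data, with the spread of each gene taken from the libraries without NC library 3. That test cannot show how the fits behave with NC library 3 among them. Depth was 11099909 to 14006968 counts per library, and a count of 0 allows up to 3 counts (95% limit, counting error only).

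The members, the lists of partner genes and the alternatives were chosen with earlier results of these data known. Genes are named with their values where they are a TIMP, MMP2, MMP9, MMP14, ADAM10 or ADAM17, where they had an adjusted p under 0.05 with 6 libraries or without NC library 3, where they were among the 10 largest fold changes or the 10 highest mean FPKM, and, for partner genes, where they were called or among the 5 largest fold changes. The partner genes called without NC library 3 were added after their values were seen. Others are named where a family is described. Promoter windows came from RefSeq tables on GRCh38.p14, and shared exons from GENCODE 29 on GRCh38. The planned split of ADAMs by their zinc-binding motif was not made.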

Additional observations from a re-analysis of the deposited data

How the results depend on the processing

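Of the members, 4 were called with 6 libraries, 8 by DESeq2, 7 without a filter, 0 with the replicate number as a block and 0 to 21 when 1 library was left out, the 21 being without NC library 3. With an added log2 fold change over 1, chosen after seeing the data for that fit, 5 members and 3.09% of all tested genes passed without NC library 3. Of the partner genes, 0 were called with 6 libraries, 1 by DESeq2, 1 without a filter, and 0 to 11 when 1 library was left out. The numbers in the titles did not pair the libraries. Same-numbered deviations correlated at -0.07, 0.04 and -0.04, and the block called 0 of all 15870 genes, with an unadjusted p under 0.05 for 3324. GRIK1 stayed above its NC level in each alternative, by 0.06 to 0.21 with 1 library left out and by 0.12 with the replicate block.

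The 4 risers passed in 6 of 12 alternatives each, and their log2 fold changes stayed positive in all 12. Signs turned for 11 of the 33 tested members and 2 of the partner genes named. When 1 library was left out the values ran from -0.031 to 0.19 for TIMP3, -0.28 to 0.085 for MMP2, -0.16 to 0.37 for MMP14, -0.33 to 0.20 for ADAMTS1, -0.20 to 0.073 for ADAM23, -0.33 to 0.19 for MMP19, -0.27 to 0.19 for ADAM8, -0.24 to 0.29 for ADAM28, -0.12 to 0.42 for MMP24, -0.22 to 0.0026 for FURIN and -0.24 to 0.029 for TSPAN14, the lowest being without NC library 3 for each of these 11. They ran from -0.17 to 0.018 for ADAMTS12, the highest being without NC library 3, and from -0.055 to 0.060 for ADAM22. In limma on log2(FPKM + 1), MMP2 had 0.078, ADAMTS1 0.18, ADAM23 0.064, MMP19 0.10, ADAMTS12 0.022, ADAM22 0.047, FURIN 0.0075 and TSPAN14 0.012. With the replicate block ADAMTS1 had 0.11 and MMP19 0.044. With the filter raised to 1 FPKM, ADAMTS1 had 0.0145 and ADAM22 0.017. ADAMTS1 also had 0.0017 in DESeq2 and 0.0020 with median-of-ratios scaling, and ADAM8 had -0.0067 without a filter. The cause was not tested. MMP9 lies under the filter and was fitted without a filter alone. Among the tested members and the partner genes named, the block turned no other sign, and the 4 risers lost their calls with it.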

Other observations

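The table holds 26 further rows with an MMP, ADAM or ADAMTS name, most of them antisense genes, pseudogenes or genes named with an added letter. They also include ADAMDEC1 and ADAMTS16-DT, both with 0 counts in each library. This set was looked at after the data were seen. Of these, 2 passed the filter of 0.5 FPKM. MMP24OS, which lies on the opposite strand of MMP24 and shares 18.1% of the exonic bases of MMP24, was at 8.34, 7.30 and 6.05 FPKM in the NC group, against 4.93, 4.92 and 5.21 FPKM in the libraries labelled GRIK1 siRNA. It fell by 0.60 on the log2 scale (SE 0.12, edgeR adjusted p = 0.0488), and by 0.66 without NC library 3. Of all tested genes edgeR called 3.09% with 6 libraries and 35.2% without NC library 3. MMP24 itself had 42, 43 and 19 counts against 37, 53 and 47, and the groups overlapped. ADAM20P1, a pseudogene, had 100, 86 and 21 counts against 81, 109 and 119, with a log2 fold change of 0.37 (SE 0.50, edgeR adjusted p = 0.661).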
